A study of Mus musculus with 2 samples.

Results

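Regulatory T cells without a transcript of Klrg1, an inhibitory lectin-like receptor of antigen-experienced and terminally differentiated T cells, were described in the T cells that infiltrated EMT6 tumours, a transplantable mouse mammary carcinoma. A member was a droplet with at least 1000 unique molecular identifiers (UMIs, tags that count single captured transcripts), at least 500 genes and at most 10% mitochondrial UMIs. It held at least 2 UMIs of Cd3d, Cd3e and Cd3g together, at least 1 of Cd4, none of Cd8a or Cd8b1, at least 2 of Foxp3 and none of Klrg1. It held no more than 2 UMIs of the division genes Mki67, Top2a and Birc5 and no more than 3 of the interferon-induced genes Ifit1, Ifit3 and Isg15. Of 16770 kept cells 280 met the rule, with 43 of 9155 for mSTAR1302 and 237 of 7615 for vehicle. The cells were chosen by the UMIs of these genes, so the levels of the genes in the rule are description only.

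The BALB/c mice were 4 to 6 weeks old and carried subcutaneous EMT6 tumours that measured 80 to 150 mm3 at randomisation. One group received mSTAR1302 into the peritoneum for 2 cycles at 1 dose per week, and the other received vehicle. The makers of mSTAR1302 describe an antibody against the Vβ13-2 and Vβ13-3 receptor chains of mouse T cells, joined to interleukin-2. CD4+ and CD8+ cells of digested tumours were enriched on magnetic beads, kept in medium with serum and loaded for 3′ single-cell RNA sequencing. Each group was 1 library of a number of mice not given in the sources used here. No test between groups was therefore made, no difference has a replicate check, and every 95% interval below covers counting error only.

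Regulatory T cells are CD4 T cells that restrain other T cells, and their program depends on the transcription factor Foxp3. They express the high-affinity interleukin-2 receptor, take up interleukin-2 through it and respond through STAT5, which maintains Foxp3. In tumours they are known to carry high levels of Ctla4 and of receptors of the tumour necrosis factor family.

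The whole library held 96486469 UMIs for mSTAR1302 and 110026997 for vehicle, and a kept cell had a median of 6260 and 8448 UMIs. Klrg1-negative regulatory T cells were closer in depth, with a median of 6028 UMIs (1045 to 14119) in the mSTAR1302 library and 6525 (1095 to 28020) in the vehicle library. They held 269997 UMIs in all for mSTAR1302 and 1728266 for vehicle, so a gene level is much less exact in the mSTAR1302 library. Levels below are CPM, a gene's UMIs added up across a gate and scaled to that gate's total UMIs. The cells set beside them met the same limits but held no Foxp3 UMI (CD4 cells without Foxp3, 660 and 429 cells, medians of 5663.5 and 6486 UMIs). The libraries shared 17 cell barcodes, 1 of them on a Klrg1-negative regulatory T cell of the vehicle library.

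Free RNA bears on the rule. Near-empty droplets of 100 to 299 UMIs held Foxp3 at 31.9 CPM in the mSTAR1302 library and 146 CPM in the vehicle library, against 607 and 583 CPM in the Klrg1-negative regulatory T cells. At least 2 Foxp3 UMIs were found in 1.37% of CD8 cells for mSTAR1302 and 8.01% for vehicle, where the median depth was 6597.5 and 9865.5 UMIs. After every cell was thinned to 3000 UMIs these shares were 0.374% and 3.29%. In cells gated as macrophages 0 of 21 for mSTAR1302 and 0 of 72 for vehicle had 2 Foxp3 UMIs, where a count of 0, taken as up to 3 cells of the total, allows shares of up to 14.3% and 4.17%. The part of free RNA and of droplets with more than 1 cell in the membership was not tested.

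The other markers given for regulatory T cells, which the rule did not use, stood high in both libraries. Ikzf2, which encodes the transcription factor Helios, Izumo1r, which encodes folate receptor 4, and Tnfrsf4, which encodes OX40, were all found in 29 of 43 cells for mSTAR1302 (67.4%) and 157 of 237 for vehicle (66.2%). At least 2 of these 3 genes were found in 90.7% and 93.7% of the cells, against 17.0% and 33.8% of CD4 cells without Foxp3. The data therefore went with the name given to the cells. Per cell, Ikzf2 had a median of 6 UMIs (0 to 25) for mSTAR1302 and 11 (0 to 47) for vehicle, and its median was 0 in CD4 cells without Foxp3 of both libraries. Members just inside and outside the Foxp3 limit stood in order of Foxp3. Ikzf2 was at 583 CPM in the 21 mSTAR1302 cells with 1 Foxp3 UMI and 1028 CPM in the 16 with 2, and at 1359 CPM in the 95 vehicle cells with 1 and 1599 CPM in the 74 with 2. On the Klrg1 side, 13 mSTAR1302 and 100 vehicle cells were left out for 1 Klrg1 UMI and 18 and 332 for more.

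Of all CD4 cells of its library, 4.59% (43 of 937, 3.34 to 6.13%) were Klrg1-negative regulatory T cells for mSTAR1302 and 11.9% (237 of 1987, 10.5 to 13.4%) for vehicle. The difference was -7.34 percentage points (Newcombe interval -9.24 to -5.29). Within CD4 cells with at least 2 Foxp3 UMIs the order was the other way, with 41.0% (43 of 105) for mSTAR1302 and 21.1% (237 of 1123) for vehicle, a difference of 19.8 points (10.6 to 29.7). Among those that passed the division and interferon limits, 58.1% (43 of 74) for mSTAR1302 and 35.4% (237 of 669) for vehicle had no Klrg1 UMI. A Klrg1 UMI is found more often in a deeper cell, and thinning each cell to 3000 UMIs before gating (1463 and 1078 shallower cells left out) changed this last share. It became 61.8% (21 of 34) for mSTAR1302, against 143 of 286 for vehicle, a difference of 11.8 points whose interval of -5.92 to 27.2 held 0. Within all CD4 cells with at least 2 Foxp3 UMIs the thinned share was 60% (21 of 35) for mSTAR1302 and 41.6% (143 of 344) for vehicle. That difference was 18.4 points (1.18 to 33.7). The thinned share of CD4 cells was 3.14% for mSTAR1302 and 11.4% for vehicle. The bead enrichment and the number of other CD4 and CD8 cells also set these shares, and their part was not tested.

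**Figure D1:**
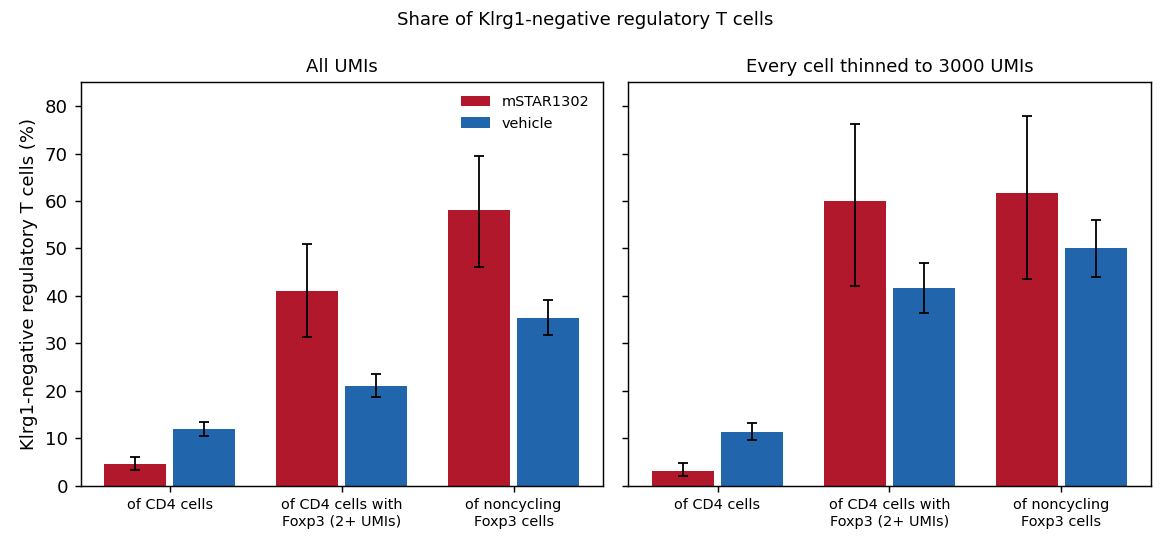
Share of Klrg1-negative regulatory T cells (%) among CD4 cells, among CD4 cells with at least 2 Foxp3 UMIs and among those within the division and interferon limits, for mSTAR1302 (red) and vehicle (blue), at full depth (left) and after thinning to 3000 UMIs (right). Bars are shares with exact Clopper-Pearson 95% intervals. The mSTAR1302 share was lower among CD4 cells (4.59% against 11.9%) and higher among Foxp3 cells (41.0% against 21.1%).

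Against CD4 cells without Foxp3 of the same library, Klrg1-negative regulatory T cells had more transcripts of the interleukin-2 receptor, of Ctla4 and tumour necrosis factor receptors, of some integrins and of proteins that present latent TGF-β. They had fewer transcripts of helper cytokines, cytotoxic receptors and the memory factor Tcf7. Among genes at 50 CPM or more in either gate, 331 of 2986 (11.1%) stood 2-fold or more above and 116 (3.88%) 2-fold or more below in the mSTAR1302 library. In the vehicle library 192 of 3217 (5.97%) were higher and 96 (2.98%) lower. Of 2787 genes at this level in both libraries, 117 (4.2%) were higher in both, 41 (1.47%) were lower in both, and 1, Lgmn, differed in opposite directions (55.6 against 2.92 CPM for mSTAR1302 and 26.0 against 81.6 CPM for vehicle), a gene named after its values were seen. The median log2 ratio over all such genes was 0.23 and 0.21, and ribosomal protein genes took 19.0% and 17.5% of the UMIs of regulatory T cells against 26.4% and 25.1% in CD4 cells without Foxp3. With scaling by the median ratio the higher genes made up 51.5% of those past 2-fold for mSTAR1302, against 74.0% by UMI total, and 44.9% for vehicle, against 66.7%. Ratios are therefore to be read against these medians.

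**Figure D2:**
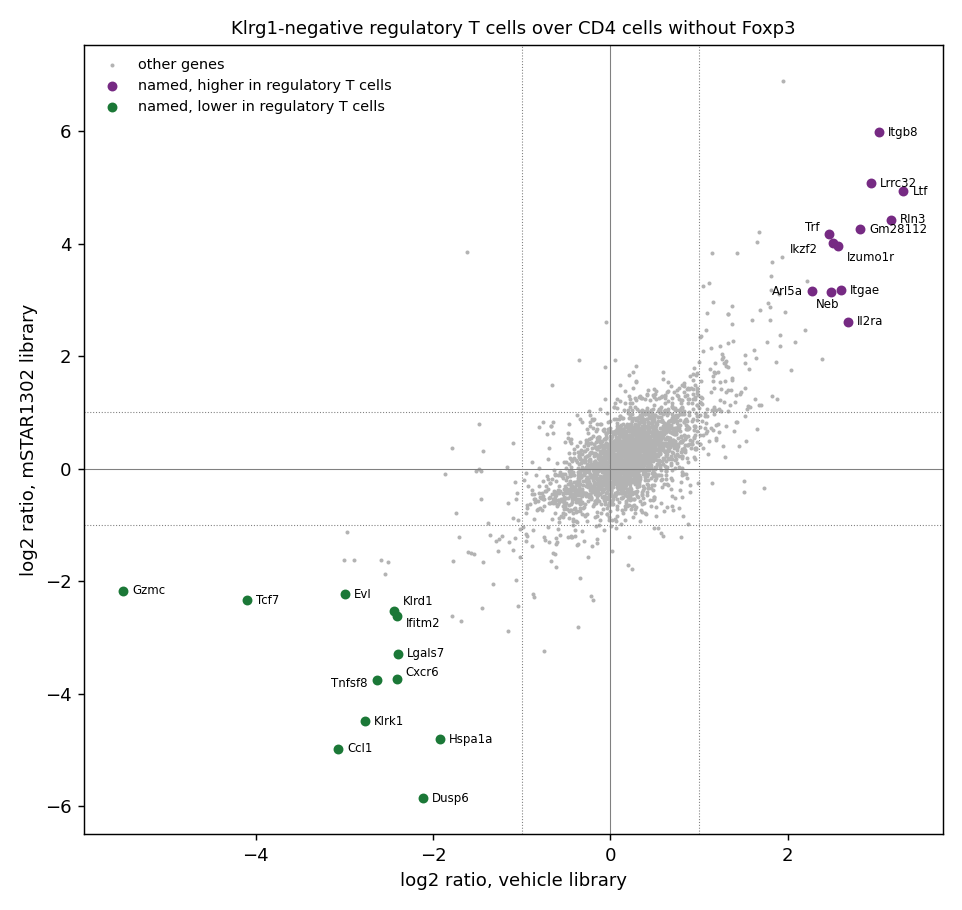
Log2 ratio (pseudocount 1 CPM) of Klrg1-negative regulatory T cells over CD4 cells without Foxp3 in the vehicle library (horizontal) and the mSTAR1302 library (vertical), 1 point per gene. Dotted lines mark 2-fold, and coloured points are the 12 named genes in each direction. The named higher genes lie above a log2 ratio of 2 in both libraries.

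The receptor for interleukin-2 stood out in both libraries. Il2ra, its high-affinity alpha chain CD25, was at 1207 CPM in regulatory T cells and 197 CPM in CD4 cells without Foxp3 for mSTAR1302, 6.14-fold higher (5.38 to 6.99). For vehicle it was at 1096 and 170 CPM, 6.45-fold higher (5.84 to 7.13). The shared chains differed less, with Il2rb at 337 against 274 CPM for mSTAR1302 and 439 against 243 CPM for vehicle, and Il2rg at 419 against 410 CPM and 481 against 377 CPM. Over the list of receptor and STAT5 response genes, 6 of 18 were 2-fold higher and 1 lower for mSTAR1302, and 3 of 19 higher and 3 lower for vehicle (median log2 0.60 and 0.35). Socs2, a feedback inhibitor of cytokine signalling, was at 141 against 51.4 CPM for mSTAR1302 and 85.6 against 43.0 CPM for vehicle. Cish, another STAT5-induced inhibitor, was within 2-fold, at 326 against 260 CPM and 330 against 259 CPM.

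Because interleukin-2 acts on Foxp3 and Il2ra through STAT5, the promoter windows of both genes are shown, 250 bases before to 50 after a gene start in RefSeq for GRCm38.p6, with the STAT5 letters TTCNNNGAA in capitals. The Foxp3 window is chrX:7580233-7580532 on the plus strand, 1 of 2 listed for the gene, and the Il2ra window is chr2:11642542-11642841 on the plus strand.
Foxp3: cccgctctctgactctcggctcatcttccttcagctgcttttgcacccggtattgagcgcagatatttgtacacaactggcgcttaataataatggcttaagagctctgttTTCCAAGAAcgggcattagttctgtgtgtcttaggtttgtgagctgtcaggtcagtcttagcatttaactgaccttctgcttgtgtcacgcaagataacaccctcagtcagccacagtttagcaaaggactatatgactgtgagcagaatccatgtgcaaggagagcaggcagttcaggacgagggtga
Il2ra: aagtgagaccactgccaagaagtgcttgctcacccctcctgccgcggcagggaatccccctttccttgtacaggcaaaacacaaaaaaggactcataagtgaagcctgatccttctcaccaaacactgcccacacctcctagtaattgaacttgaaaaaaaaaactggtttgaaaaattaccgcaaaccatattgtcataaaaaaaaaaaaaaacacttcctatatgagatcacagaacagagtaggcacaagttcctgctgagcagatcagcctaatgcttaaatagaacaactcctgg
The letters, which read the same on both strands, occur at base -139 of the Foxp3 window and not in the Il2ra window. Windows were looked up for 14 genes, the 12 named below as higher than in CD4 cells without Foxp3 and the markers Foxp3 and Tnfrsf4. Of these 8 had an entry, and 1 of their 9 windows held the STAT5 letters, against 8.30% of all 32851 windows. The forkhead letters GTAAACA and the AP-1 letters TGANTCA, searched on both strands, were in none of the 9 and in 3.65% and 7.81% of all windows. These are matches of letters in short windows and say nothing of binding.

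The list of regulatory T cell identity genes was higher in both libraries. Foxp3 aside, 18 of its 24 genes reached 50 CPM for mSTAR1302, of which 14 were 2-fold higher and 0 lower (median log2 2.18). For vehicle 20 reached it, with 13 higher and 0 lower (median log2 1.29). In CD4 cells without Foxp3 3 of 15 identity genes (Ikzf2, Izumo1r and Itgae) were 2-fold lower for mSTAR1302 than for vehicle, and 0 were higher. The ratios of the 2 libraries were therefore not taken against like levels. Ikzf2 was at 1196 CPM in regulatory T cells and 72.8 CPM in CD4 cells without Foxp3 for mSTAR1302, 16.4-fold higher (14.0 to 19.3). For vehicle it was at 1716 and 301 CPM, 5.70-fold higher (5.29 to 6.16). Near-empty droplets held Ikzf2 at 95.01 CPM for mSTAR1302 and 412 CPM for vehicle, each above the level in CD4 cells without Foxp3 of that library. Izumo1r was at 404 against 25.1 CPM for mSTAR1302 and 362 against 60.3 CPM for vehicle. Ikzf4, which encodes Eos, a partner of Foxp3, was at 181 against 22.6 CPM and 141 against 40.3 CPM. Ctla4, which removes costimulatory ligands from antigen-presenting cells, was at 1663 against 264 CPM for mSTAR1302, 6.30-fold higher, and at 1213 against 346 CPM for vehicle, 3.50-fold higher. Gata3, Satb1 and Nrp1 were not set apart in this way. Gata3 was at 200 against 249 CPM for mSTAR1302 and 228 against 204 CPM for vehicle, Satb1 at 337 against 301 CPM and 308 against 376 CPM, and Nrp1, a thymic regulatory T cell marker, below 50 CPM in both gates of both libraries.

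Receptors of the tumour necrosis factor family, which feed NF-kappaB, followed the same order. Tnfrsf4 was at 1770 CPM in regulatory T cells and 342 CPM in CD4 cells without Foxp3 for mSTAR1302, and at 1238 and 328 CPM for vehicle, 5.18-fold and 3.77-fold higher. Near-empty droplets held it at 174 and 563 CPM. Tnfrsf9, which encodes 4-1BB, was at 1444 against 386 CPM and 1581 against 431 CPM, and Tnfrsf18, which encodes GITR, at 1159 against 451 CPM and 1206 against 489 CPM. Tnfrsf1b, the second TNF receptor, was at 130 against 48.7 CPM and 187 against 74.2 CPM. Of the whole list 7 of 17 genes were 2-fold higher for mSTAR1302 and 4 of 18 for vehicle, with 0 lower in either. The NF-kappaB subunits Nfkb1, Rela and Relb were within 2-fold in both libraries.

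A pair of the named genes belongs to the activation of TGF-β. Lrrc32 encodes GARP, which holds latent TGF-β at the surface of regulatory T cells, and Itgb8 encodes the integrin β8 chain, which frees it. Lrrc32 was at 115 against 2.43 CPM for mSTAR1302, 47.2-fold higher (22.5 to 108), and at 61.3 against 7.11 CPM for vehicle, 8.62-fold higher (5.36 to 14.5). Itgb8 was at 92.6 against 0.487 CPM for mSTAR1302, with 2 UMIs behind the second value (190-fold, 47.4 to 1657), and at 154 against 17.9 CPM for vehicle, 8.58-fold higher (6.37 to 11.7). Its partner Itgav, the alpha V chain, was at 222 against 48.0 CPM and 349 against 91.8 CPM. Tgfb1 itself was within 2-fold, at 293 against 189 CPM and 209 against 156 CPM. Itgae, which encodes CD103 and binds E-cadherin of epithelium, was at 274 against 29.5 CPM for mSTAR1302 and 362 against 58.9 CPM for vehicle. Other integrin chains were lower. Itgb1, the beta chain of many matrix receptors, was at 200.002 against 564 CPM for mSTAR1302 and 139 against 416 CPM for vehicle, and Itga4, its partner in VLA-4, was at 46.9 against 144 CPM for vehicle and below 50 CPM in both gates for mSTAR1302. Of the list of adhesion and tissue residence genes 6 of 16 were 2-fold higher and 1 lower for mSTAR1302, and 5 of 16 higher and 3 lower for vehicle (median log2 0.42 and 0.37).

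The remaining named genes higher in both libraries have less to do with known suppressive function. Rln3, which encodes the peptide relaxin-3, was at 204 against 8.52 CPM for mSTAR1302 and 247 against 26.8 CPM for vehicle, in 15 of 43 and 88 of 237 cells. Ltf, which encodes the iron-binding protein lactoferrin, was at 81.5 against 1.70 CPM and 126 against 11.9 CPM, in 8 and 33 cells. Trf, which encodes transferrin, was at 51.9 against 1.95 CPM and 55.0 against 9.14 CPM. Arl5a, a small GTPase of the Golgi, was at 481 against 53.3 CPM and 508 against 104 CPM. Neb, which encodes the muscle protein nebulin and lies next to Arl5a on chromosome 2 on the same strand, was at 111 against 11.7 CPM and 174 against 30.1 CPM. Gm28112 lies within Ikzf2 on the same strand, so its reads and those of Ikzf2 could be split between them, and it was at 92.6 against 3.90 CPM and 96.6 against 12.9 CPM.

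Of genes of effector regulatory T cells in tumours, 10 of 21 were 2-fold higher and 2 lower for mSTAR1302, and 11 of 21 higher and 1 lower for vehicle (median log2 0.87 and 1.14). Gzmb, which encodes the protease granzyme B, was at 2544 against 296 CPM for mSTAR1302 and 1131 against 301 CPM for vehicle, and at 1108 and 632 CPM in near-empty droplets. Areg, which encodes the repair factor amphiregulin, was at 407 against 21.2 CPM and 377 against 117 CPM. Cd81, a tetraspanin, was at 156 against 10.5 CPM and 239 against 61.6 CPM. Maf was at 656 against 260 CPM and 929 against 338 CPM, and Prdm1, which encodes Blimp-1, at 104 against 26.8 CPM and 109 against 43.3 CPM. Penk, which encodes enkephalin precursors, was at 815 against 56.2 CPM for mSTAR1302, with 107 of its 220 UMIs in 1 cell, and at 383 against 172 CPM for vehicle. Ccr8, a receptor used to mark tumour regulatory T cells, stayed low, at 29.6 against 9.49 CPM and 35.9 against 14.2 CPM. Cxcr6, the receptor for CXCL16, was the exception that was lower in both libraries, at 33.3 against 458 CPM and 31.8 against 173 CPM.

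**Figure D3:**
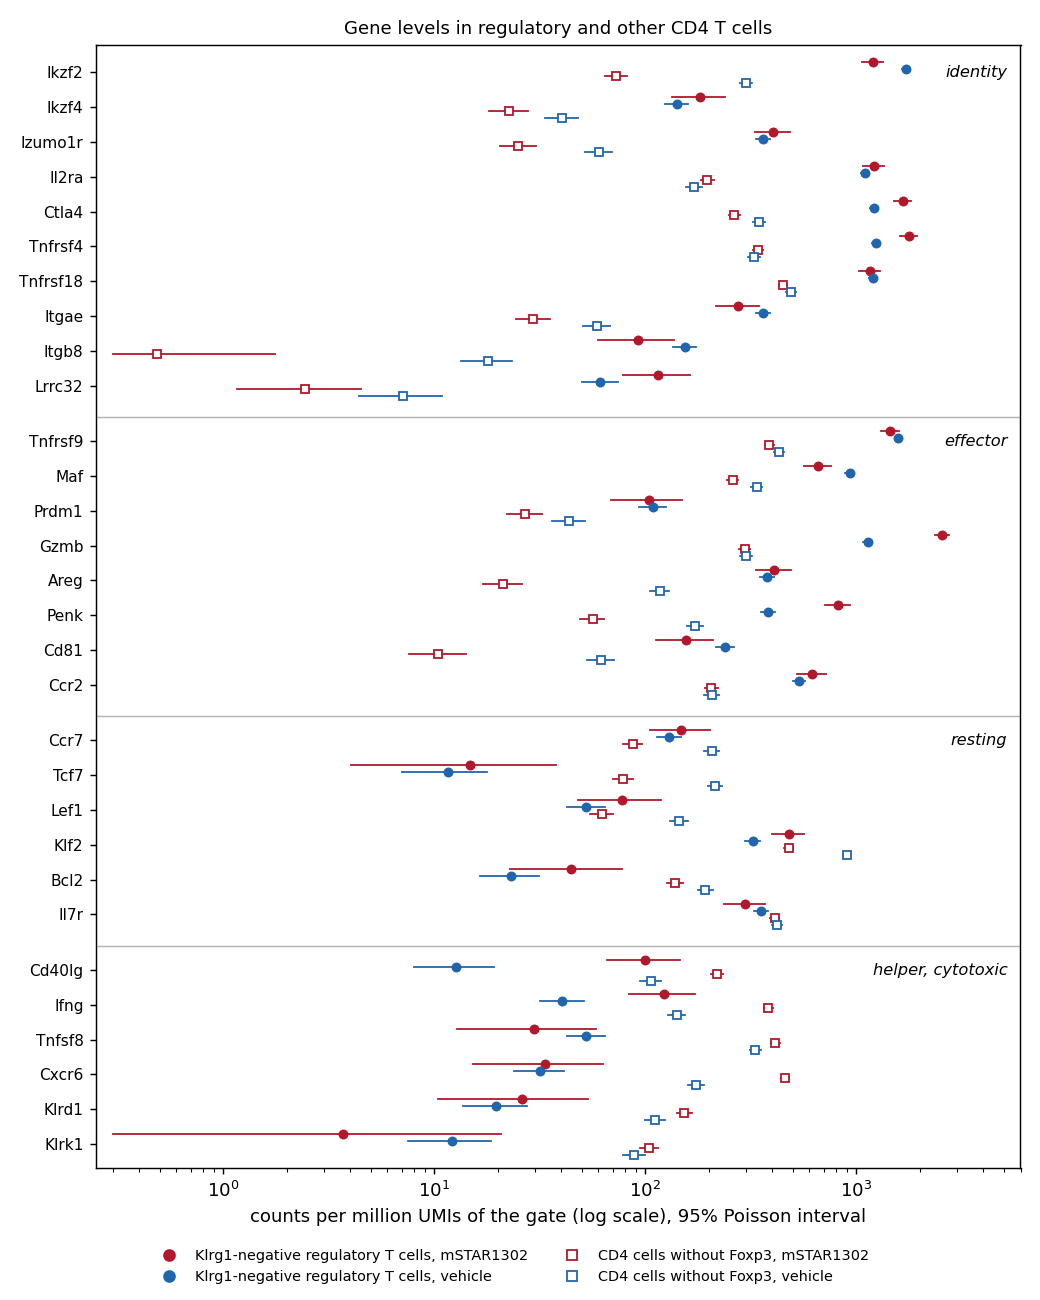
Levels in CPM (log axis) of identity, effector, resting, helper and cytotoxic genes in Klrg1-negative regulatory T cells (filled circles) and CD4 cells without Foxp3 (open squares), with mSTAR1302 in red and vehicle in blue. Lines are exact 95% Poisson intervals, and an interval that reaches below 0.3 is drawn to 0.3. Ikzf2 and Il2ra stand apart between the gates in both libraries, while Klf2 and Il7r differ by less.

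Genes of resting and lymph node T cells did not all follow 1 order. Tcf7, which encodes TCF1, was lower in regulatory T cells in both libraries, at 14.8 against 78.6 CPM for mSTAR1302 and 11.6 against 215 CPM for vehicle, and so was Bcl2, a survival factor, at 44.4 against 138 CPM and 23.1 against 193 CPM. Ccr7, a lymph node homing receptor, was at 148 against 87.4 CPM for mSTAR1302 but 130 against 207 CPM for vehicle. Klf2, a factor of resting T cells that drives S1pr1, was at 478 against 477 CPM for mSTAR1302 and 322 against 901 CPM for vehicle. Of the list 2 of 13 genes were higher and 3 lower for mSTAR1302 (median log2 0.02), and 1 of 14 higher and 7 lower for vehicle (median log2 -1.12). In CD4 cells without Foxp3 7 of 14 of these genes were 2-fold lower for mSTAR1302 than for vehicle, so the cells set beside the regulatory T cells differed between the libraries.

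Helper and cytotoxic genes were lower. Of helper cytokine and costimulation genes 7 of 10 were 2-fold lower for mSTAR1302 and 4 of 7 for vehicle, with 0 higher (median log2 -1.60 and -1.15). Tnfsf8, which encodes the CD30 ligand, was at 29.6 against 413 CPM for mSTAR1302 and 52.7 against 333 CPM for vehicle. Ifng was at 122 against 382 CPM and 40.5 against 141 CPM. Ccl1, a chemokine that binds CCR8, was at 7.41 against 263 CPM and 7.52 against 70.4 CPM. Of cytotoxic genes 8 of 11 were lower and 1, Gzmb, higher for mSTAR1302, and 4 of 8 lower and 1, again Gzmb, higher for vehicle. Klrk1, which encodes the activating receptor NKG2D, was at 3.70 against 104 CPM and 12.2 against 88.7 CPM, and Klrd1, which encodes CD94, at 25.9 against 153 CPM and 19.7 against 111 CPM. Gzmc was at 14.8 against 69.9 CPM and 6.94 against 357 CPM, but 217 of its 287 UMIs and 722 of its 1054 UMIs in CD4 cells without Foxp3 lay in 1 cell each.

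The other named lower genes were of several kinds. Ifitm2, an interferon-induced membrane protein, was at 370 against 2268 CPM for mSTAR1302 and 119 against 638 CPM for vehicle. Lgals7, which encodes galectin-7, was at 48.1 against 479 CPM and 14.5 against 80.3 CPM. Evl, a regulator of actin filaments, was at 11.1 against 56.0 CPM and 6.36 against 57.6 CPM. Dusp6, a phosphatase of ERK, had 0 UMIs against 57.0 CPM for mSTAR1302, at least 5.13-fold lower when set against 3 counts, and 14.5 against 66.0 CPM for vehicle. Hspa1a, which encodes an inducible heat shock protein, was at 3.70 against 130 CPM and 17.9 against 70.8 CPM. It belongs to a list of genes that tissue dissociation can induce, of which 5 of 18 were 2-fold lower for mSTAR1302 and 2 of 17 for vehicle.

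Few glycolysis genes were past 2-fold, and the list's median had opposite signs in the libraries. In the mSTAR1302 library 0 of 14 were past 2-fold, with a median log2 ratio of -0.32, and in the vehicle library 2 of 15 were higher, with a median of 0.71. Pgk1 was at 326 against 527 CPM for mSTAR1302 and 488 against 284 CPM for vehicle, and Tpi1 at 148 against 266 CPM and 335 against 189 CPM. For mSTAR1302 over vehicle the median log2 ratio of the list was -0.44 in Klrg1-negative regulatory T cells, with 1 of 16 genes (Hk2) 2-fold higher and 3 lower. It was 0.67 in CD4 cells without Foxp3, with 2 of 14 higher and 0 lower. In Klrg1-positive regulatory T cells it was 0.15, with 0 of 15 genes past 2-fold. The difference between the libraries was not tested. The response list of the T cell receptor did not stand apart, with 2 of 15 higher and 1 lower for mSTAR1302 and 0 and 1 of 15 for vehicle.

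**Figure D4:**
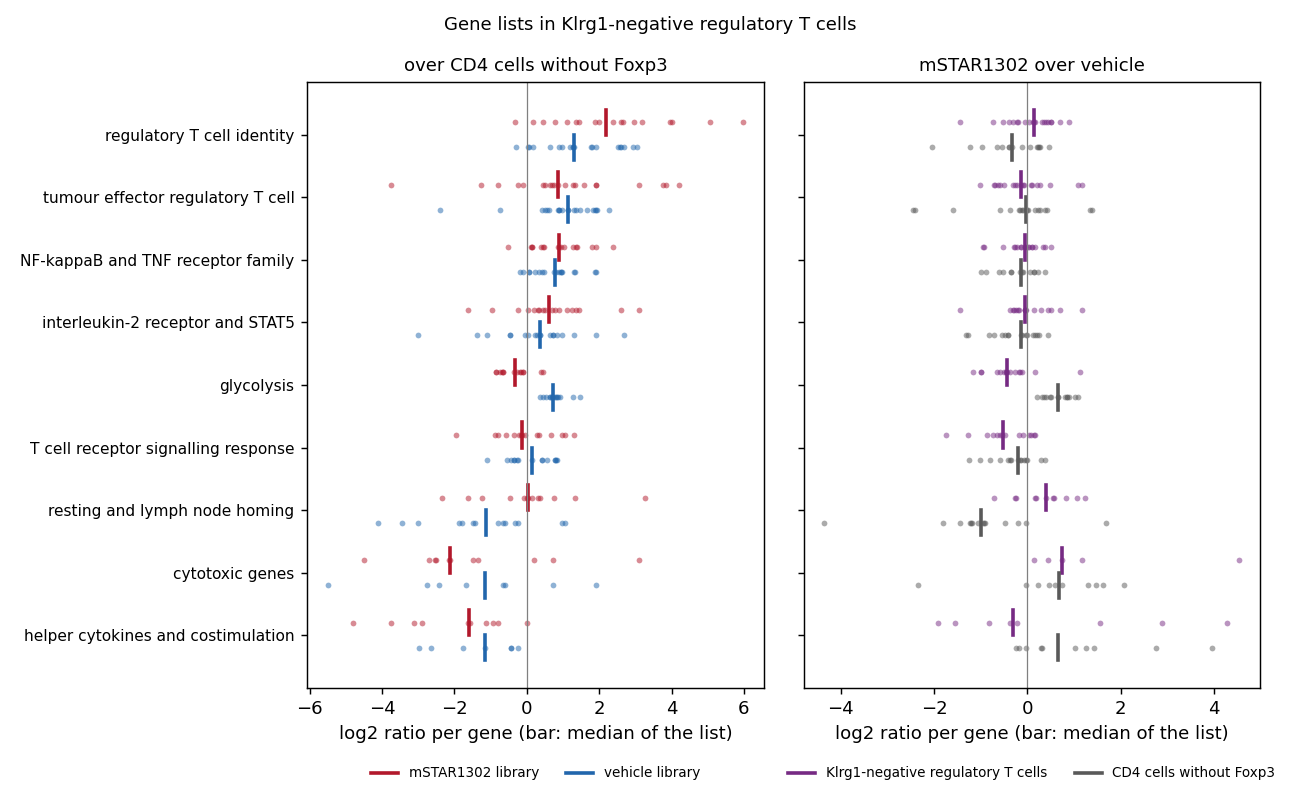
Log2 ratios per gene (points) and list medians (bars) for genes at 50 CPM or more, of Klrg1-negative regulatory T cells over CD4 cells without Foxp3 in each library (left) and of mSTAR1302 over vehicle within each gate (right). On the left the identity list has medians of 2.18 and 1.29 and the helper list -1.60 and -1.15. On the right the glycolysis list has a median of -0.44 in Klrg1-negative regulatory T cells and 0.67 in CD4 cells without Foxp3.

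Between the libraries, Klrg1-negative regulatory T cells had similar levels of most identity genes and differed in a small number of others. Of 3239 genes that reached 50 CPM for mSTAR1302 or for vehicle, 45 (1.39%) stood 2-fold or more above vehicle and 151 (4.66%) below, and in 8 of these 151 the interval of the ratio held 1. These counts became 21 higher and 271 lower without each gene's top cell, and 146 and 341 with cells thinned to 3000 UMIs. Without the top cell the gate's total was kept, and 1 cell of 43 tends to hold a larger part of a gene's UMIs than 1 of 237. That step tends to lower the ratios of mSTAR1302 over vehicle by itself, so it cannot check their direction. In CD4 cells without Foxp3 36 of 2785 (1.29%) were higher and 95 (3.41%) lower. Of identity genes 0 of 20 were 2-fold higher and 1 lower, with a median log2 ratio of 0.13. The one lower was Stat5a, at 22.2 CPM for mSTAR1302 and 61.9 CPM for vehicle. Of interleukin-2 receptor and STAT5 genes 1 of 17, Gzmb, was 2-fold higher and 1, Stat5a, lower (median log2 -0.06). Gzmb was at 2544 CPM for mSTAR1302 and 1131 CPM for vehicle, 2.25-fold higher (2.06 to 2.46), while it was at 296 and 301 CPM in CD4 cells without Foxp3. Of 14 response genes of the T cell receptor 2 were lower, Egr1 at 25.9 against 88.5 CPM and Jun at 219 against 525 CPM. Both are also genes that dissociation can induce. The median log2 ratio of this list was -0.51, against -0.06 over all genes, and 4 of the 14 had a ratio above 1. It was -0.74 in Klrg1-positive regulatory T cells, with 4 of 14 genes 2-fold lower and 0 above a ratio of 1. In CD4 cells without Foxp3 it was -0.19, with 2 of 15 lower.

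Ifitm genes, interferon-induced membrane proteins that restrict viral entry, were higher for mSTAR1302 in both gates. Ifitm3 was at 533 CPM for mSTAR1302 and 62.5 CPM for vehicle in regulatory T cells, 8.53-fold higher (6.60 to 11.1), and 8.34-fold higher in CD4 cells without Foxp3. Near-empty droplets held it at 489 CPM for mSTAR1302 and 341 CPM for vehicle. Ifitm2 was at 370 against 119 CPM, 3.11-fold higher, and 3.55-fold higher in CD4 cells without Foxp3. Ifitm1 was at 496 against 42.2 CPM, but 120 of its 134 UMIs for mSTAR1302 lay in 1 cell, and without the top cell of each library its log2 ratio was 0.79 in place of 3.52.

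Some cytokine and effector genes were higher for mSTAR1302, on few UMIs, and others were lower. Of helper cytokine and costimulation genes 3 of 8 (Il2, Cd40lg and Ifng) were 2-fold higher and 2 lower (median log2 -0.30). The lower ones were Tnf at 22.2 against 67.1 CPM and Tnfsf11, which encodes RANKL, at 14.8 against 58.4 CPM. In CD4 cells without Foxp3 5 of 10 genes of this list were 2-fold higher for mSTAR1302 and 0 lower (median log2 0.67). Il2, Cd40lg and Ifng were among those 5, and Gzma was 2-fold higher in CD4 cells without Foxp3 too. Gzma, which encodes the protease granzyme A, had 17 UMIs in 13 of 43 cells for mSTAR1302 and 3 UMIs in 3 of 237 cells for vehicle, or 63.0 against 1.74 CPM (36.3-fold, 10.5 to 193). Near-empty droplets held Gzma at 934 CPM for mSTAR1302 and 17.8 CPM for vehicle, the same order and a higher level, and the part of free RNA was not tested. Ifng was at 122 against 40.5 CPM, 3.02-fold higher (1.93 to 4.63), with 1156 and 361 CPM in near-empty droplets. Cd40lg, which encodes the CD40 ligand of helper cells, was at 100 against 12.7 CPM, 7.86-fold higher (4.31 to 14.5), in 8 of 43 and 17 of 237 cells. Of its 27 mSTAR1302 UMIs 19 came from cells with 2 Foxp3 UMIs, the lowest level the rule admits. All 14 Il2 UMIs for mSTAR1302 lay in 1 cell (51.9 against 1.74 CPM), so the higher level of Il2 rested on that cell.

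The other named higher genes included some that were within 2-fold in CD4 cells without Foxp3. Ecm1, which encodes extracellular matrix protein 1, was at 330 CPM for mSTAR1302 and 106 CPM for vehicle in regulatory T cells, 3.11-fold higher (2.39 to 4.03), in 25 of 43 and 98 of 237 cells. In CD4 cells without Foxp3 Ecm1 was at 41.4 and 47.1 CPM. Mbnl3, a splicing regulator, was at 81.5 against 19.1 CPM, 4.27-fold higher (2.37 to 7.54), and at 11.0 against 10.2 CPM in CD4 cells without Foxp3. Rasgrp2, which activates the GTPase Rap1, was at 55.6 against 19.1 CPM, and at 57.0 against 54.2 CPM in CD4 cells without Foxp3. Yes1, a kinase of the Src family, was at 55.6 against 12.7 CPM. Igkc, an immunoglobulin light chain gene, was at 293 CPM in 9 cells for mSTAR1302 and 55.0 CPM in 24 cells for vehicle, against 1.46 and 13.5 CPM in CD4 cells without Foxp3. Whether the gates differ in these ratios was not tested.

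Of the 12 named lower genes, 3 had most of their vehicle UMIs in 1 cell. Tyrobp, an adapter of myeloid and natural killer receptors, Klk1, a kallikrein, and Cox6a2, a subunit of the respiratory chain, had 0 UMIs for mSTAR1302 and were at 83.9, 71.7 and 55.0 CPM for vehicle. That is at least 7.55-fold, 6.46-fold and 4.95-fold lower, and 88 of 145, 67 of 124 and 50 of 95 vehicle UMIs lay in 1 cell. Sdc4, which encodes the proteoglycan syndecan-4, was at 33.3 CPM for mSTAR1302 and 163 CPM for vehicle, in 7 of 43 and 115 of 237 cells, and at 5.84 against 65.0 CPM in CD4 cells without Foxp3. Pcsk1, a protease that processes peptide hormones, was at 7.41 CPM for mSTAR1302, from 2 UMIs in 1 cell, against 77.5 CPM for vehicle. Ddit4, an inhibitor of mTORC1 induced by stress and low oxygen, was at 14.8 against 69.4 CPM, and at 33.8 against 20.7 CPM in CD4 cells without Foxp3. Zranb2, Chka, Wdr82, Dhrs7, Cwf19l2 and Ppfia1 were at 14.8 to 22.2 CPM for mSTAR1302 and 59.6 to 89.1 CPM for vehicle.

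**Figure D5:**
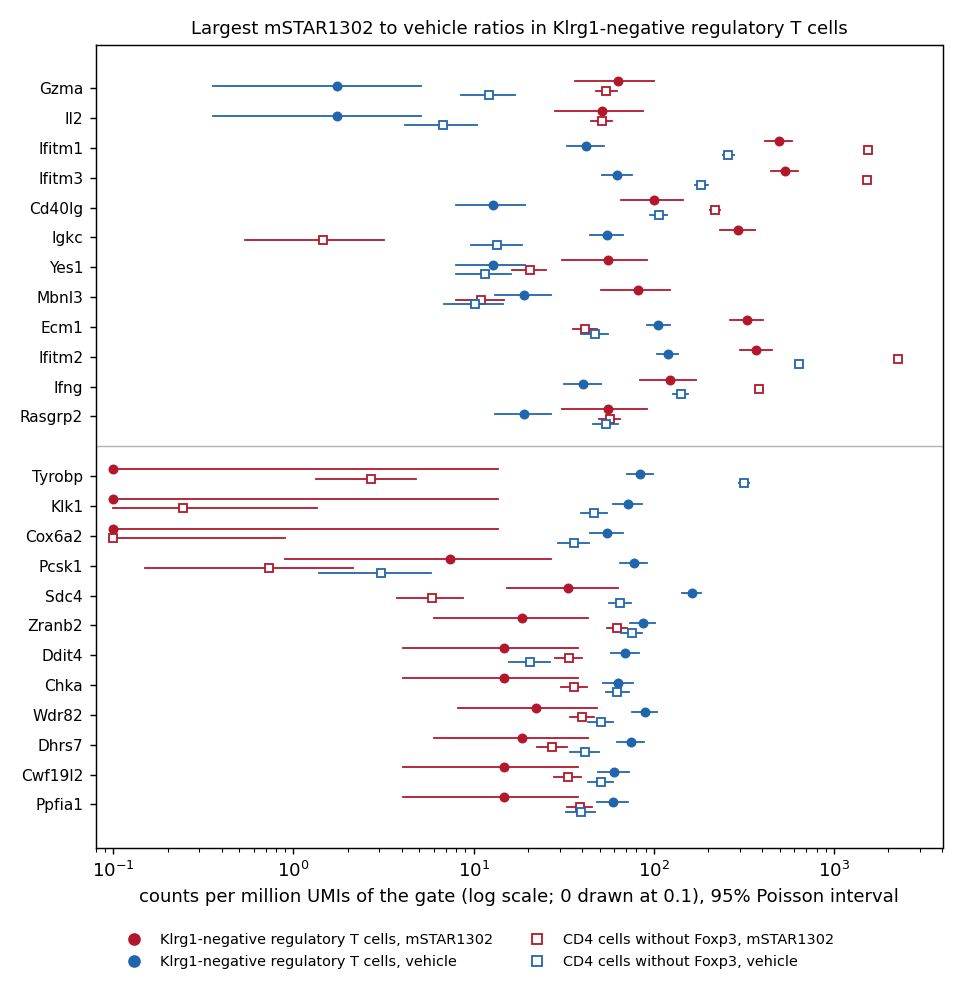
Levels in CPM (log axis, 0 drawn at 0.1) of the 12 genes with the highest and the 12 with the lowest ratios of mSTAR1302 over vehicle in Klrg1-negative regulatory T cells (filled circles), with the same genes in CD4 cells without Foxp3 (open squares). Red is mSTAR1302, blue is vehicle, and lines are exact 95% Poisson intervals. Ifitm3 differs in both gates, and Ecm1 differs in regulatory T cells (330 against 106 CPM) but little in the other gate.

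Transcripts of some other cell types differed between the libraries. The 14 macrophage genes summed to 18.5 CPM for mSTAR1302 and 213 CPM for vehicle in regulatory T cells, and to 25.8 and 2037 CPM in CD4 cells without Foxp3. Near-empty droplets held them at 446 and 2478 CPM. Of these genes 9 were at 0 in the mSTAR1302 cells and 1 in the vehicle cells. The 12 B and plasma cell genes summed to 422 CPM for mSTAR1302 and 190 CPM for vehicle, against 9.74 and 64.3 CPM in CD4 cells without Foxp3, and 9 of them were at 0 in mSTAR1302 regulatory T cells and 6 in vehicle ones. A UMI of C1qa, C1qb, C1qc, Lyz2, Cd79a or Col1a1 was found in 2 of 43 and 90 of 237 cells. Fibroblast and natural killer genes were at 0 CPM for mSTAR1302 and at 27.2 and 11.6 CPM for vehicle, from 47 and 20 UMIs. The mSTAR1302 regulatory T cells held 269997 UMIs in all, against 1728266 for vehicle, so a gene or list is more readily at 0 there. The counts of genes at 0 and the 0 of the natural killer list therefore do not show a difference by themselves. The 15 dendritic cell genes summed to 456 CPM for mSTAR1302 and 863 CPM for vehicle in regulatory T cells. EMT6 tumour genes were at 70.4 and 72.3 CPM and endothelial genes at 70.4 and 56.7 CPM, so these lists stood close in the libraries. Their part in the differences between the libraries was not tested beyond leaving out such cells.

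Against regulatory T cells that met the same limits but held a Klrg1 UMI, few genes of the Klrg1-negative cells were past 2-fold in the vehicle library. In the vehicle library, with 237 and 432 cells of 6525 and 7797.5 median UMIs, 11 of 3177 genes (0.346%) were 2-fold higher and 15 (0.472%) lower. Of 20 identity genes none was past 2-fold (median log2 -0.02). Of 23 genes of effector regulatory T cells in tumours 0 were 2-fold higher and 3 (Penk, Cxcr6 and Havcr2) lower. The median log2 ratio of that list was -0.18 for vehicle. For mSTAR1302 it was 0.09, with 1 of 22 genes 2-fold higher and 5 lower. Gzmb, of the same list, was within 2-fold in CPM. Its UMIs per cell, which are not scaled to depth, had a median of 3 in Klrg1-negative and 9 in Klrg1-positive cells. The gates differed in depth, a Klrg1 UMI is found more often in a deeper cell, and the part of this was not tested. Ikzf2 was at 1716 CPM in Klrg1-negative and 1728 CPM in Klrg1-positive cells, Ctla4 at 1213 and 1390 CPM, and Il2ra at 1096 and 1196 CPM. In the mSTAR1302 library, with 43 and 31 cells, 192 of 3184 genes (6.03%) were higher and 173 (5.43%) lower, but the interval of the ratio left out 1 for 125 and 119 of them.

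The genes that did differ for vehicle included a resting receptor and a kinase-like regulator. Ccr7 was at 130 CPM in Klrg1-negative and 54.5 CPM in Klrg1-positive cells, 2.38-fold higher, and at 148 and 130 CPM for mSTAR1302. Trib2, a pseudokinase, was at 64.2 and 25.9 CPM for vehicle and at 159 and 63.1 CPM for mSTAR1302. Gm8369 was at 121 and 50.5 CPM for vehicle, and Hspa1b at 54.4 and 19.5 CPM. Ccl3, a chemokine of activated cells, was lower in Klrg1-negative cells, at 26.0 and 89.0 CPM for vehicle and 40.7 and 94.7 CPM for mSTAR1302. Penk was at 383 and 1051 CPM for vehicle, and in the opposite order at 815 and 110 CPM for mSTAR1302, where 107 UMIs lay in 1 Klrg1-negative cell. Ifitm3 was at 62.5 and 157 CPM for vehicle and 533 and 481 CPM for mSTAR1302, and Lgals7 at 14.5 and 52.9 CPM for vehicle. Klk1, Cox6a2, Ctsl and Plac8 among the higher genes lost or turned their difference when cells of high UMI count or with transcripts of other cell types were left out. Of the lower ones H2-Aa, H2-Eb1 and Cd74, genes of antigen presentation on MHC class II, had 256 of 392, 242 of 393 and 451 of 843 Klrg1-positive UMIs in 1 cell. Ifi30, a lysosomal reductase, was at 17.4 and 54.8 CPM for vehicle, but its log2 ratio of -1.60 became 0.22 without cells holding a UMI of C1qa, C1qb, C1qc, Lyz2, Cd79a or Col1a1.

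mSTAR1302 is directed at receptor chains encoded by Trbv13-2 and Trbv13-3, so their share of all Trbv UMIs was counted. In Klrg1-negative regulatory T cells it was 4 of 12 UMIs for mSTAR1302, 33.3% (9.92 to 65.1%), and 6 of 65 for vehicle, 9.23% (3.46 to 19.0%). The difference was 24.1 percentage points (2.40 to 52.1). It rested on 4 UMIs in 4 cells, 25.6% of the mSTAR1302 cells and 20.7% of the vehicle cells had any Trbv UMI, and the interval held 0 when cells were counted in place of UMIs (-0.239 to 53.1). In CD4 cells without Foxp3 the share was 11.2% (24 of 214) for mSTAR1302 and 13.6% (18 of 132) for vehicle, a difference of -2.42 points (-10.2 to 4.48). In Klrg1-positive regulatory T cells it was 3 of 10 UMIs for mSTAR1302 and 9 of 102 for vehicle, a difference of 21.2 points (0.686 to 51.8), and -3.02 to 54.8 points when cells were counted. The segments differ little in sequence, so reads could be split among them, and with Trbv13-1 added the difference in regulatory T cells was 19.5 points (-2.64 to 47.8).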

How the data were processed

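Klrg1-negative regulatory T cells of 2 libraries were analysed. The authors deposited unfiltered UMI counts, made with Cell Ranger (version 4 per the file headers, 6.0.1 per the submitters' processing notes) on mm10. No annotation of cells by the authors was used, and no doublet caller was run. UMIs were summed per gate and library with Python 3.11.15, NumPy 2.4.6, SciPy 1.17.1 and pandas 2.3.3 and divided by the gate's total to give CPM. Intervals at 95% were exact Poisson for CPM, exact conditional binomial for ratios, Clopper-Pearson for shares and Newcombe for differences of shares. List medians had intervals from the ranks of their genes, which are not counting error and served only to judge recomputed values. Log2 ratios used a pseudocount of 1 CPM, and genes counted reached 50 CPM in either group. The script was tested on simulated data. Positions come from GENCODE on GRCm38, the assembly of mm10.

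The members and gene lists were chosen with earlier results of these data known. Named genes were, against CD4 cells without Foxp3, the 12 higher and 12 lower genes with the largest smaller ratio of the 2 libraries, past 2-fold in both with intervals that left out 1. Between libraries they were the 12 largest ratios each way, and against Klrg1-positive cells the 8 each way for vehicle. Genes of the rule and receptor segments were left out, and list members were named as examples. Alternatives were scaling, floor, pseudocount, thinning, stricter gates and left-out cells. The intervals given with values cover counting error only, which is widest for genes with few UMIs. Values of 1 gene, and a sorting of cells that used it, are not reported here.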

Additional observations from a re-analysis of the deposited data

Results flagged for a closer look

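For 4 genes the mSTAR1302 level was at least 2-fold above vehicle in Klrg1-negative regulatory T cells and at least 2-fold below it in CD4 cells without Foxp3. They came from a search of all genes at 50 CPM or more for opposite directions. Over all such genes 45 of 3239 (1.39%) were 2-fold higher in Klrg1-negative regulatory T cells. In CD4 cells without Foxp3 95 of 2785 (3.41%) were 2-fold lower. With 1 library a group, whether the changes of these 4 genes differ between the gates was not tested. Fabp5, which encodes a fatty acid binding protein, was at 596 CPM for mSTAR1302 and 280 CPM for vehicle in regulatory T cells (log2 ratio 1.09), and at 40.7 and 103 CPM in CD4 cells without Foxp3 (log2 ratio -1.32). Trib2 had log2 ratios of 1.30 and -1.36, and Penk 1.09 and -1.60. Of the 220 Penk UMIs of mSTAR1302 regulatory T cells 107 lay in 1 cell, so its 2-fold higher level rested on that cell. In Klrg1-positive regulatory T cells Penk was at least 2-fold lower for mSTAR1302 than for vehicle. Lgmn, which encodes a lysosomal protease of macrophages, had log2 ratios of 1.06, on 15 and 45 UMIs, and -4.40, and the macrophage genes summed to 25.8 CPM for mSTAR1302 and 2037 CPM for vehicle in CD4 cells without Foxp3.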

How the results depend on the processing

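Gene results were recomputed with another scaling, floors of 20 and 100 CPM, a pseudocount of 10 CPM, cells weighted equally and thinning to 3000 UMIs. Stricter Foxp3, mitochondrial and depth limits were also set, and cells that could hold other material left out. Gene ratios were not recomputed at other floors, nor counts with another pseudocount. Shares were recomputed only under other gate, depth or left-out-cell settings, and Trbv shares also by cells and with Trbv13-1 added. Leaving out each gene's top cell, or cells holding Siglech, Klk1, Cox6a2 or Tyrobp (the Siglech set), was chosen after seeing the data. For the top cell the gate's total was kept, so levels tend to fall more in the gate with fewer cells. Of 232 recomputed main results 202 stayed near the reported value, and of 1417 for single genes and lists 1244 did. A count was near within a set fold of the main one, and a ratio, median or share inside the main interval. Values called near could therefore change, and a list median whose interval covered both signs could change sign. With median-ratio scaling the 45 genes higher for mSTAR1302 over vehicle became 54 and the 151 lower became 119, and both were called near. Genes higher than in CD4 cells without Foxp3 in both libraries were 117 and became 73 with median-ratio scaling, 190 and 69 at floors of 20 and 100 CPM, and 61 against CD4 cells under no Klrg1, division or interferon limit. The 41 lower became 63, 76 and 25 with the first 3 of these. Genes higher for mSTAR1302 over vehicle were 45 and became 165 and 21 at the 2 floors, 146 with thinning, 88 with at least 3 Foxp3 UMIs, 81 at 5% mitochondrial UMIs, 69 without cells holding myeloid, B or fibroblast UMIs, and 21 without each gene's top cell. The 151 lower became 605 and 40 at the floors, 341 with thinning and 271 without the top cell. Against Klrg1-positive cells the 11 higher became 36 and 5 at the floors, 7 with equal weights and 7 with 3 Foxp3 UMIs. They became 7 without cells above 20000 UMIs, 6 without the top cell and 7 without cells of the Siglech set. The 15 lower became 32 and 8 at the floors, 9 with equal weights and 9 without those cells. The share difference of -7.34 points became -9.88 with 1 Foxp3 UMI. The sign turned in the log2 ratio of Il2 (4.27), to -1.35 with 3 Foxp3 UMIs and -1.11 without the top cell. That of Gzmc for vehicle (-5.49) turned to 1.12 without cells holding myeloid, B or fibroblast UMIs and 0.67 without the Siglech set. Against Klrg1-positive cells the sign turned in Cox6a2 (3.73) to -0.058 and Klk1 (3.79) to -0.13 without cells above 20000 UMIs. Without cells holding myeloid, B or fibroblast UMIs it turned in Klk1 to -0.81 and Ifi30 (-1.60) to 0.22. Plac8 (1.09) turned to -1.13 without the Siglech set. Ctsl (1.15) turned to -0.16, -0.29 and -0.068 with these 3 kinds of cells left out in turn. The cause was not tested; a lower floor admits more genes and a higher one fewer. No paired analysis was possible because each group was 1 library. With 43 mSTAR1302 cells, a gene at 50 CPM rests on few UMIs.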
